A study of Mus musculus with 12 samples.

Results

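Iron uptake, storage and export was described through 9 genes that were chosen for their roles, out of 37620 genes in the count table. They were Tfrc, Steap3, Slc11a2 and Slc11a1 for uptake and movement of iron, Fth1, Ftl1 and Ncoa4 for storage, Hmox1 for release of iron from heme, and Slc40a1 for export. All 9 were found in the table and all 9 passed the filter on low counts in every comparison. The study measured gene expression in bone endothelial cells (BECs), the cells that line the blood vessels of bone, purified by their endomucin and taken from the tibia of c57/Bl6 mice. The 4 groups were females at 2 weeks (F.2weeks), males at 2 weeks (M.2weeks), females at 65 weeks (F.65weeks) and males at 65 weeks (M.65weeks), with n = 3 libraries each and no treatment or transgene given in the labels. The labels do not say whether each library came from a separate animal, so every p-value measures the spread between libraries, which may be technical.

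Cells take up iron mostly as transferrin bound to the transferrin receptor, reduce it in the endosome and pass it to the cytosol. Surplus iron is stored in ferritin shells built of heavy and light chains, and ferroportin is the known exporter of iron from cells. In bone marrow, erythroid cells are the main users of iron, and macrophages that engulf old red cells return it through heme oxygenase and ferroportin.

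Library totals ranged from 26044743 to 44569600 counts. Levels are given as CPM, the count of a gene divided by the library total and multiplied by 1000000, whereas fold changes come from edgeR with an additional scaling between libraries (TMM), so that the ratio of 2 CPM means can differ from the fitted fold. The endothelial label was checked with 22 endothelial markers. Their summed level was 4790 to 7959 CPM in the libraries of 2 weeks and 695 to 907 CPM in those of 65 weeks, and 21 of the 22 were called lower at 65 weeks in each sex. The other, Tal1, a factor that erythroid cells also use, was at 279.7 to 523 CPM at 2 weeks and 296 to 470.0 CPM at 65 weeks, and made up 42.6 to 57.4% of the older sums. Without Tal1, a choice made after the data were seen, the sum of the 21 was 4267 to 7679 CPM and then 349 to 488 CPM, and the mean was 13.4-fold lower in females and 19.1-fold lower in males, against 7.27-fold and 9.74-fold with all 22. Emcn, which encodes endomucin, was at 115 to 227 CPM at 2 weeks and at 2.80 to 6.98 CPM at 65 weeks. Markers of other marrow cells were present in every library. The sum of 16 erythroid genes was 32020 to 60770 CPM at 2 weeks and 33440 to 51350 CPM at 65 weeks. The sum of 14 genes of iron-recycling macrophages was 4053 to 7963 CPM at 2 weeks and 4429 to 6915 CPM at 65 weeks, that of 8 monocyte genes was 2268 to 3350 CPM and 5681 to 7808 CPM, and that of 15 neutrophil genes was 5890 to 8236 CPM and 13660 to 29730 CPM. Summed markers of bone and platelet-forming cells were lower in every older library. The 12 osteoblast and chondrocyte genes summed to 3368 to 4842 CPM and then 92.5 to 158 CPM. The sum of 8 megakaryocyte genes was 1597 to 2690 CPM and then 123 to 339.6 CPM. For 8 osteoclast genes it was 2128 to 3276 CPM and then 800.4 to 1800 CPM. Mmp9, also 1 of the 15 neutrophil genes, held most of the older osteoclast sums. Its mean was 631 of 898 CPM in F.65weeks and 1148 of 1491 CPM in M.65weeks. Lymphoid sums were higher, with 9 B cell genes at 274 to 369.9 CPM and then 456 to 1895 CPM. The 10 T and NK cell genes were at 61.2 to 83.8 CPM and then 137 to 235 CPM. The 8 plasma cell genes were at 311 to 440.1 CPM and then 984 to 1614 CPM. Most of the older plasma cell sum was Jchain, a mean of 957.5 of 1374 CPM in F.65weeks and 956 of 1258 CPM in M.65weeks. Of the plasma cell genes, 6 were called higher and 1 lower in females, and 5 higher and 2 lower in males. In such bulk libraries fewer cells of a type and less RNA per cell cannot be told apart. M.65weeks replicate 3 held 117 counts of Xist, an RNA of female cells, against 0 to 3 in the other male libraries. F.2weeks replicate 3 held 12 counts of Ddx3y and 9 of Eif2s3y, genes of the Y chromosome, against 0 or 1 in the other female libraries.

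Iron controls several of these genes through iron-responsive elements, short hairpins of the mRNA that are bound by the iron regulatory proteins when iron is scarce. Binding to a hairpin in the 5′ untranslated region (UTR) blocks translation, and binding to hairpins in the 3′ UTR protects the mRNA from decay. The hairpins are shown because, among the members that hold them, their place tells control of mRNA decay from control of translation. They do not sort the members without a hairpin, and they leave other controls of mRNA level aside. GENCODE M39 transcripts were searched on their own strand for the loop CAGTGN, with an unpaired C, 5 upper pairs and at least 3 of 5 lower pairs (G with T counted as a pair). Of 21623 protein-coding genes 111 (0.513%) held such letters, and 4 of the 9 members were among them. When 1 extra unpaired base was allowed in the 3′ arm, 335 genes (1.55%) matched, among them Slc11a2 as the fifth member. The searched form is that of known elements, and control of several members through them was known beforehand. These shares are therefore no test of the members. The sequences are from GRCm39, written 5′ to 3′ as DNA letters, with the loop of 6 bases in capitals.
Fth1, 5′ UTR, exon 1, chr19:9960097-9960123, plus strand: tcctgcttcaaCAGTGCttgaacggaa
Ftl1, 5′ UTR, exon 1, chr7:45109204-45109230, minus strand: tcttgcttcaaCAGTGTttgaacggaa
Slc40a1, 5′ UTR, exon 1, chr1:45964626-45964652, minus strand: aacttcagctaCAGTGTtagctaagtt
Tfrc site 1, 3′ UTR, exon 19, chr16:32450038-32450064, plus strand: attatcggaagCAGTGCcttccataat
Tfrc site 2, 3′ UTR, exon 19, chr16:32450417-32450443, plus strand: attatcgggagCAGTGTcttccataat
Tfrc site 3, 3′ UTR, exon 19, chr16:32450482-32450508, plus strand: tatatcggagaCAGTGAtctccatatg
Tfrc site 4, 3′ UTR, exon 19, chr16:32450529-32450555, plus strand: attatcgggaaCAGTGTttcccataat
Slc11a2, 3′ UTR, exon 16, chr15:100293034-100293061, minus strand: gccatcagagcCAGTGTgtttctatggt
The first 7 hairpins lie in the canonical transcript of their gene, and that of Slc11a2 lies in the transcript Slc11a2-205. Hmox1, Ncoa4, Steap3 and Slc11a1 had no match to these letters in the searched transcripts. A match is a description of letters, and protein binding was not measured.

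The 9 genes together held 0.708 ± 0.054% of all counts in F.2weeks, 0.776 ± 0.0823% in M.2weeks, 1.01 ± 0.0248% in F.65weeks and 1.27 ± 0.104% in M.65weeks (SD, n = 3). To compare genes with each other, levels were divided by the summed exon length in kilobases. On this scale the order in all 4 groups was Ftl1, Fth1, Hmox1, Tfrc, Slc40a1, Ncoa4, Slc11a1, Steap3 and Slc11a2. In F.2weeks the levels ran from 1275 ± 69.6 CPM per kilobase for Ftl1 to 8.14 ± 1.25 for Slc11a2, and in M.65weeks from 2924 ± 351 to 8.50 ± 0.995. Some neighbours overlapped: Slc11a1 and Steap3 in both groups of 2 weeks, Fth1 and Hmox1 in M.2weeks, and Tfrc and Slc40a1 as well as Steap3 and Slc11a2 in M.65weeks. With the length of the canonical transcript instead, chosen after the data were seen, Fth1 stood above Ftl1 and Slc11a2 above Steap3 in every group, with overlap of the ferritin chains in M.65weeks. On that scale Slc11a2 also stood above Slc11a1 in F.2weeks, at 29.8 ± 4.56 against 23.8 ± 1.38 CPM per kilobase without overlap, and Slc40a1 stood above Tfrc in M.65weeks, where both overlapped. The order of these neighbours therefore rested on the length used.

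**Figure D1:**
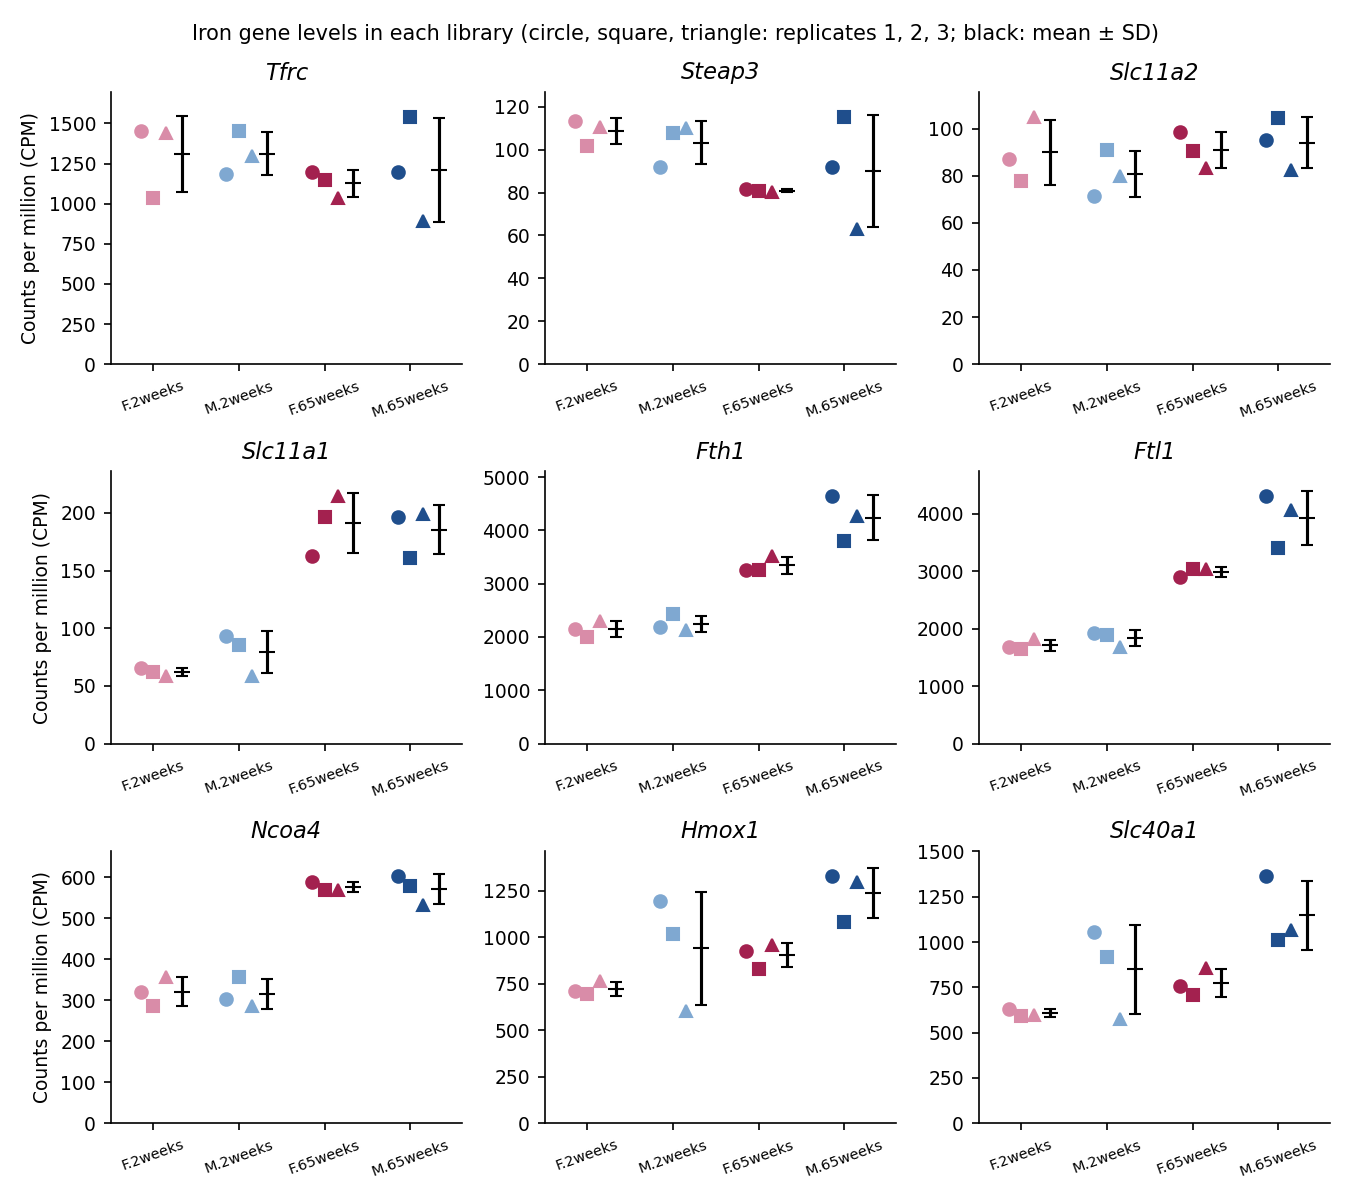
Level of each of the 9 iron genes in CPM (linear axes from 0) in each library of the 4 groups, with symbols for replicates 1, 2 and 3 and black marks for the mean ± SD (n = 3). The libraries of 65 weeks lie above those of 2 weeks without overlap in both sexes for Slc11a1, Fth1, Ftl1 and Ncoa4, and Tfrc overlaps between all groups.

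The first question was how the iron genes differed between 2 and 65 weeks within each sex. In females 7 of the 9 members were called at an adjusted p under 0.05, against 59.7% of the 15120 genes tested. Of them 6 were higher at 65 weeks (30.2% of all genes) and 1 was lower (29.5%). In males 4 members were called, against 55.5% of 14959 genes, and all 4 were higher (27% of all genes). The same 4 genes, Slc11a1, Fth1, Ftl1 and Ncoa4, were called higher in both sexes, as were 22.7% of the 14775 genes tested in both. All 7 called in females and all 4 called in males had groups that did not overlap. Among all genes tested in females, 27.6% lay wholly higher and 41.6% wholly lower at 65 weeks, and in males 26% and 39.4%. The median log2 fold change of the members was 0.49 in females and 0.55 in males, beside 0.0056 and 0.008 over all genes tested. With library totals as the only scaling, the median over all genes moved to -0.13 in females and -0.11 in males, and the calls in females went from 4568 higher and 4462 lower to 3668 higher and 5451 lower. The called members were the same 7 and the same 4 under that scaling. In 1 model of all 12 libraries, which share an estimate of the spread, Steap3 (edgeR adjusted p = 0.169), Hmox1 (edgeR adjusted p = 0.068) and Slc40a1 (edgeR adjusted p = 0.0559) were not called in females.

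Tfrc (ENSMUSG00000022797, chr16:32427556-32451612, GRCm39) encodes transferrin receptor 1, through which cells take up transferrin iron. Its level was 1455, 1034 and 1441 CPM in F.2weeks, 1186, 1455 and 1297 in M.2weeks, 1197, 1145 and 1037 in F.65weeks, and 1195, 1542 and 894 in M.65weeks. The lowest and the highest library were both M.65weeks, and the groups of each sex overlapped. The change at 65 weeks in log2 was -0.087 (SE 0.148, edgeR adjusted p = 0.639) in females and 0.0073 (SE 0.215, edgeR adjusted p = 0.979) in males. F.2weeks replicate 2 was the low library of its group, and without it Tfrc was called lower at 65 weeks in females with a log2 fold change of -0.28 (edgeR adjusted p = 0.0202).

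Steap3 (ENSMUSG00000026389, chr1:120118487-120200435) encodes the endosomal reductase that converts iron released from transferrin. It was measured at 113, 102 and 111 CPM in F.2weeks and at 81.7, 80.8 and 80.3 CPM in F.65weeks. All 3 older female libraries lay below all 3 younger ones, and Steap3 was the member that fell with age in females, at a log2 value of -0.29 (SE 0.08, edgeR adjusted p = 0.0141). In M.2weeks it was at 91.8, 108 and 110 CPM and in M.65weeks at 92.0, 115 and 63.2 CPM. The male groups overlapped, and the difference in log2 was -0.068 (SE 0.221, edgeR adjusted p = 0.809).

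Slc11a2 (ENSMUSG00000023030, chr15:100285776-100322953) encodes the divalent metal transporter DMT1, which passes iron from the endosome to the cytosol. It was the lowest member per kilobase, at 77.9 to 105 CPM in F.2weeks, 71.5 to 91.0 in M.2weeks, 83.5 to 98.8 in F.65weeks and 82.6 to 105 in M.65weeks. The groups overlapped in both sexes. On the log2 scale the change at 65 weeks was 0.15 (SE 0.131, edgeR adjusted p = 0.369) in females and 0.34 (SE 0.141, edgeR adjusted p = 0.0727) in males. Without M.65weeks replicate 3 the male value was 0.43 and was called (edgeR adjusted p = 0.0176).

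Slc11a1 (ENSMUSG00000026177, chr1:74414303-74425448), a paralog of Slc11a2, encodes NRAMP1, a metal transporter of the phagosome of macrophages and neutrophils. Its level was 65.5, 62.2 and 58.3 CPM in F.2weeks and 163, 197 and 215 CPM in F.65weeks. In males it was 93.3, 85.7 and 58.5 CPM in M.2weeks and 196, 161 and 199 CPM in M.65weeks. The ages did not overlap in either sex. Slc11a1 rose more than any other member in both sexes, by 3.39-fold in females (log2 1.76, SE 0.115, edgeR adjusted p = 9.84e-06) and by 2.54-fold in males (log2 1.34, SE 0.186, edgeR adjusted p = 0.000643). Of the 8 monocyte genes, 7 were called higher and 1 lower in females and 6 higher in males. Of the 15 neutrophil genes, 12 were called higher and 1 lower in females and 14 higher in males. Lymphoid markers rose too, with 8 of 9 B cell genes called higher in each sex. Of 10 T and NK cell genes, 10 were called higher in females and 8 in males. The part of these cells in the result was not tested.

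Fth1 (ENSMUSG00000024661, chr19:9957911-9962462) encodes the ferritin heavy chain, which oxidizes iron for storage. It was at 2153, 2003 and 2297 CPM in F.2weeks and at 3250, 3251 and 3524 CPM in F.65weeks. In M.2weeks it was at 2195, 2422 and 2123 CPM and in M.65weeks at 4640, 3794 and 4273 CPM. All older libraries exceeded all younger ones, and Fth1 rose 1.70-fold in females (log2 0.77, SE 0.0899, edgeR adjusted p = 0.000178) and 2.04-fold in males (log2 1.03, SE 0.138, edgeR adjusted p = 0.000527).

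Ftl1 (ENSMUSG00000050708, chr7:45107367-45109308) encodes the ferritin light chain, which supports the mineral core. Its level was 1672, 1642 and 1816 CPM in F.2weeks, 2893, 3031 and 3033 in F.65weeks, 1929, 1893 and 1687 in M.2weeks, and 4301, 3395 and 4067 in M.65weeks. The ages were again separate in both sexes. Ftl1 rose 1.92-fold in females (log2 0.94, SE 0.0825, edgeR adjusted p = 3.86e-05) and 2.32-fold in males (log2 1.21, SE 0.143, edgeR adjusted p = 0.000268). Reads of Ftl1 can be shared with the near copy Ftl1-ps1, which was counted separately. Ftl1-ps1 held 505 to 1220 counts at 2 weeks, or 0.878 to 1.54% of the Ftl1 count, and 3363 to 5926 counts at 65 weeks, or 3.78 to 5.47%. The other ferritin pseudogenes, Ftl2-ps, Fth1-ps and Fth-ps2, held at most 12 counts in any library.

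Ncoa4 (ENSMUSG00000056234, chr14:31881822-31902234) encodes the receptor that carries ferritin to the autophagosome for the release of its iron. It was measured at 320, 285 and 356 CPM in F.2weeks and 589, 568 and 568 CPM in F.65weeks. In males it was at 302, 357 and 287 CPM in M.2weeks and 603, 579 and 531 CPM in M.65weeks. The 6 older libraries lay between 531 and 603 CPM, above the 6 younger ones at 285 to 357 CPM. The rise was 1.97-fold in females (log2 0.98, SE 0.104, edgeR adjusted p = 0.000107) and 1.97-fold in males (log2 0.98, SE 0.131, edgeR adjusted p = 0.000552). Ncoa4 overlaps Timm23, which held at most 4042 counts in a library, on the opposite strand in GRCm39, and whether the counting used strand is not given in the sources used here.

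Hmox1 (ENSMUSG00000005413, chr8:75820241-75827217) encodes heme oxygenase 1, the inducible enzyme that opens heme and frees its iron. Its level was 711, 692 and 765 CPM in F.2weeks and 924, 832 and 958 CPM in F.65weeks, without overlap. It rose 1.37-fold in females (log2 0.46, SE 0.088, edgeR adjusted p = 0.00254). In M.2weeks it was at 1197, 1018 and 604 CPM and in M.65weeks at 1331, 1082 and 1295 CPM. M.2weeks replicate 3 was below every other library, the male groups overlapped, and the log2 fold change of 0.51 was not called (SE 0.244, edgeR adjusted p = 0.111).

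Slc40a1 (ENSMUSG00000025993, chr1:45947211-45965683) encodes ferroportin, the iron exporter. It was at 632, 590 and 596 CPM in F.2weeks and at 755, 708 and 857 CPM in F.65weeks, and the groups were separate. It rose 1.40-fold in females (log2 0.49, SE 0.0903, edgeR adjusted p = 0.00214). In M.2weeks it was at 1053, 919 and 575 CPM, and in M.65weeks at 1366, 1010 and 1064 CPM. As for Hmox1, M.2weeks replicate 3 was the lowest of all 12 libraries and the male groups overlapped, and the log2 difference was 0.55 (SE 0.243, edgeR adjusted p = 0.0872). Of the 14 macrophage genes, 9 were called higher and 1 lower in females. In males 2 were called higher and 3 lower. The part of macrophages in these differences was not tested.

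**Figure D2:**
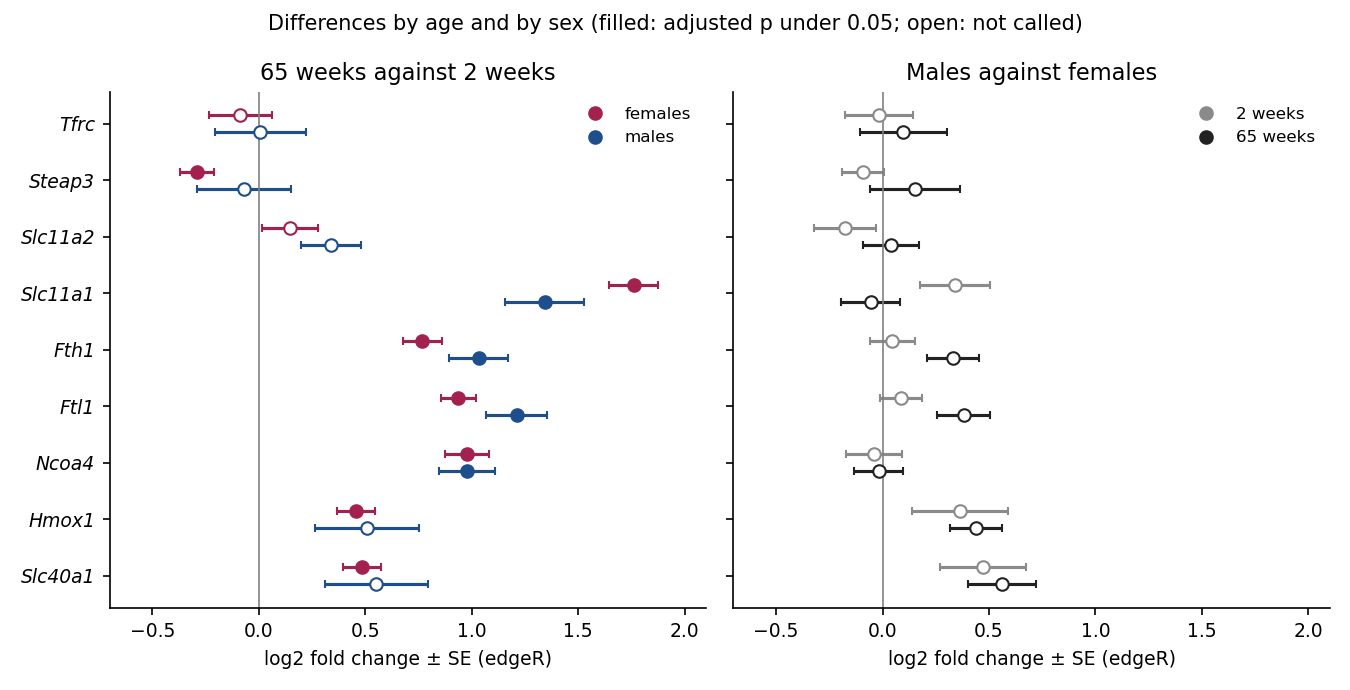
Log2 fold change ± SE (edgeR) of the 9 genes, for 65 against 2 weeks in females and males (left) and for males against females at 2 and 65 weeks (right), with filled points for genes called at an adjusted p under 0.05. Slc11a1 has the largest difference with age, 1.76 in females and 1.34 in males, and no gene is called between the sexes.

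The second question was whether males and females differed at the same age. At 2 weeks edgeR called 0 of the 9 members, against 0.0332% of 15081 genes, and DESeq2 also called 0, against 3.12% of 13211 genes. Only Slc40a1 had an unadjusted edgeR p under 0.05, against 17.8% of all genes, at 0.47 on the log2 scale in males over females (SE 0.202, edgeR adjusted p = 0.28). No member had all male libraries above all female ones (9.97% of all genes) or below them (11.8%). Slc40a1, Hmox1, Slc11a1, Fth1, Ftl1 and Ncoa4 had their lowest value of M.2weeks in replicate 3. That library also had the lowest sum of macrophage genes of its group, 4321 CPM against 7963 and 6898 CPM in replicates 1 and 2. Its sums of megakaryocyte genes (1597 against 2690 and 2605 CPM) and of T and NK cell genes (61.2 against 83.8 and 81.5 CPM) were the lowest too. Cd4 held most of the T and NK cell sum, a mean of 57.1 of 75.5 CPM in M.2weeks. It ranged there from 37.4 to 69.2 CPM, so that sum says little about the other genes of the list. The sums of monocyte, neutrophil, osteoclast, and osteoblast and chondrocyte genes were the highest in replicate 3. Mmp9 is in both the neutrophil and the osteoclast list. It was at 1400 to 1955 CPM in M.2weeks, beside neutrophil sums of 5890 to 6363 CPM. The order of the neutrophil sums can therefore rest on this shared gene. The part of any of these cells in the difference was not tested.

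At 65 weeks edgeR again called 0 members, against 0.042% of 14287 genes. The same 4 members had an unadjusted edgeR p under 0.05 (10.4% of all genes) and had every male library above every female one (9.32% of all genes). These 4 were the ferritin chains, heme oxygenase and ferroportin. No member had every male library below every female one (6.16%). Slc40a1 differed by 1.48-fold (log2 0.56, SE 0.159, edgeR adjusted p = 0.258) and Hmox1 by 1.36-fold (log2 0.44, SE 0.124, edgeR adjusted p = 0.258). For Ftl1 the ratio was 1.30-fold (log2 0.38, SE 0.125, edgeR adjusted p = 0.337) and for Fth1 it was 1.26-fold (log2 0.33, SE 0.122, edgeR adjusted p = 0.396).

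These differences depended on the tool and on 1 library. DESeq2 called Slc40a1 (adjusted p = 0.028) and Hmox1 (adjusted p = 0.0392), 2 of the 9 members, against 358 of 14004 genes (2.56%). Without M.65weeks replicate 3, the library with Xist counts, edgeR called Slc40a1 with a log2 fold change of 0.64 (adjusted p = 0.0467), and 830 of 14700 genes (5.65%) were called in all. Over the 12 alternatives the adjusted p of Slc40a1 ranged from 0.028 to 0.704 and that of Hmox1 from 0.0392 to 0.718. The sum of neutrophil genes was 20300 to 29730 CPM in M.65weeks and 13660 to 18370 CPM in F.65weeks, while the sum of macrophage genes overlapped between them, at 4429 to 6765 and 5078 to 6915 CPM. The part of neutrophils in the sex difference was not tested. Ncoa4, Slc11a1, Slc11a2, Steap3 and Tfrc overlapped between the sexes at 65 weeks, with log2 fold changes from -0.056 to 0.15.

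The sex difference at 65 weeks was compared with that at 2 weeks by an interaction term over all 12 libraries. Both edgeR and DESeq2 called 0 of the 9 members, and 0 had an unadjusted edgeR p under 0.05. Of all 15747 genes edgeR called 0.00635% and 11.9% had such an unadjusted p, and DESeq2 called 2.42% of 14973 genes. The largest values were -0.42 for Slc11a1 (SE 0.229, edgeR adjusted p = 0.501), 0.27 for Ftl1 (SE 0.149, edgeR adjusted p = 0.5) and 0.26 for Fth1 (SE 0.148, edgeR adjusted p = 0.512). The values of Hmox1 and Slc40a1 were 0.051 and 0.067, each with an SE of 0.275 or 0.276.

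The balance between members was measured as a ratio of counts within each library, which needs no scaling between libraries. In bulk libraries the genes of a ratio can come from different cells, and the part of cell makeup was not tested. After the group means were removed, Pearson's r of log2 CPM was 0.032 for Tfrc with Slc40a1 and -0.335 for Slc11a2 with Slc11a1. Age was tested within sex and sex within age for 3 ratios, 6 tests in all, by two-sided exact permutation of the log2 ratio over 400 relabelings, which cannot give a p below 0.005. The ratio of Fth1 to Ftl1 was 1.26 ± 0.0347 in F.2weeks, 1.23 ± 0.0765 in M.2weeks, 1.12 ± 0.045 in F.65weeks and 1.08 ± 0.0336 in M.65weeks (SD, n = 3). The ratio was lower at 65 weeks, by a log2 difference of -0.17 averaged over the sexes (exact permutation p = 0.005, adjusted 0.015), -0.17 in females and -0.18 in males, although the highest ratio of F.65weeks, 1.16, lay above the lowest of M.2weeks, 1.14. Neither sex was tested alone, since 3 libraries against 3 cannot give a p below 0.1. Thus the heavy chain rose less than the light chain.

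The ratio of Slc11a1 to Slc11a2 was 0.701 ± 0.129 in F.2weeks, 0.993 ± 0.29 in M.2weeks, 2.13 ± 0.462 in F.65weeks and 2.01 ± 0.438 in M.65weeks (SD, n = 3). All 6 older libraries, at 1.54 or more, lay above the 6 younger ones, at 1.31 or less. The log2 difference with age was 1.60 in females and 1.03 in males, with an average of 1.31 (exact permutation p = 0.005, adjusted 0.015). The ratio of Slc40a1 to Tfrc, export over uptake, was 0.473 ± 0.0856 in F.2weeks, 0.654 ± 0.223 in M.2weeks, 0.692 ± 0.117 in F.65weeks and 0.996 ± 0.297 in M.65weeks (SD, n = 3). It was higher at 65 weeks by 0.58 on the log2 scale (exact permutation p = 0.02, adjusted 0.04). The ages overlapped in males, and the unadjusted p was 0.07 when any of M.2weeks replicate 2 or 3 or M.65weeks replicate 1 or 3 was left out.

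Between the sexes the ratio of Slc40a1 to Tfrc was higher in males by 0.46 on the log2 scale (exact permutation p = 0.055, adjusted 0.0825), which did not pass the threshold. The ratio of Fth1 to Ftl1 differed by -0.044 (exact permutation p = 0.235, adjusted 0.282) and that of Slc11a1 to Slc11a2 by 0.20 (exact permutation p = 0.385, adjusted 0.385), the average of 0.48 at 2 weeks and -0.086 at 65 weeks.

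**Figure D3:**
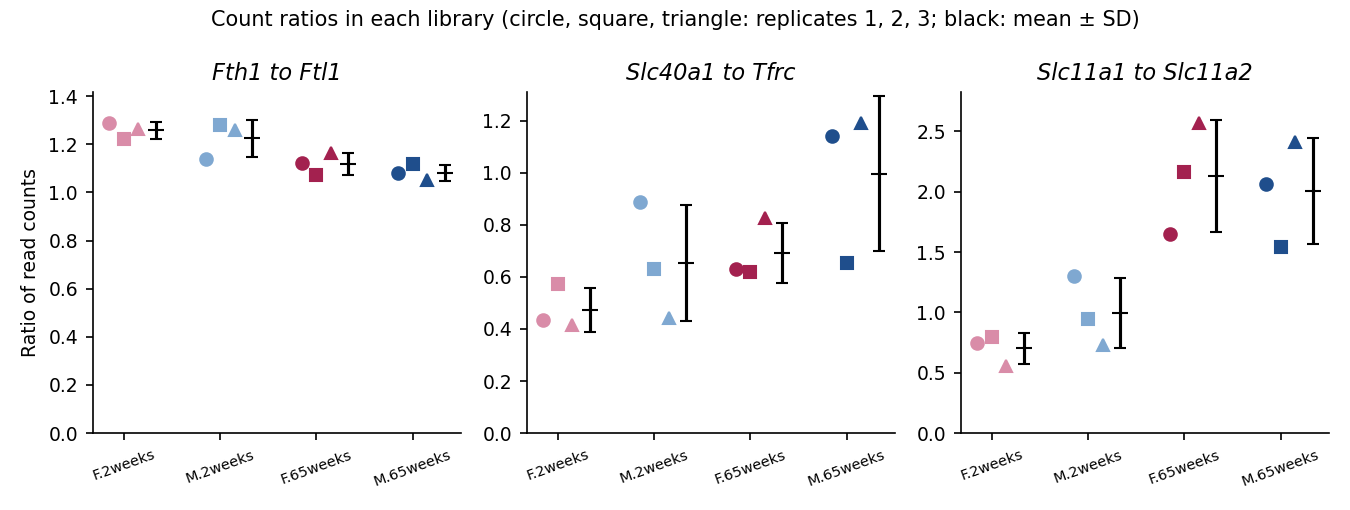
Ratios of read counts in each library for Fth1 to Ftl1, Slc40a1 to Tfrc, and Slc11a1 to Slc11a2 (linear axes from 0), with symbols for replicates 1, 2 and 3 and black marks for the mean ± SD (n = 3). The ratio of Slc11a1 to Slc11a2 is 1.54 or more in every library of 65 weeks and 1.31 or less in every library of 2 weeks.

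Within groups some members deviated together, and those named here were picked from these same deviations. In M.65weeks replicate 3, Tfrc was 0.40 below its group mean on the log2 CPM scale, Steap3 0.47 and Slc11a2 0.18, and in replicate 2 the same genes were 0.39, 0.40 and 0.16 above it. The sum of erythroid genes was 33440 CPM in replicate 3 and 47160 and 49400 CPM in replicates 2 and 1. Replicate 2, with the highest Tfrc and Steap3, thus had a lower erythroid sum than replicate 1. Other sums set replicate 3 apart too. Neutrophil genes were at 20300 CPM against 29150 and 29730 CPM in replicates 2 and 1, and B cell genes at 1895 against 456 and 600 CPM. The part of any of these cells in this spread was not tested. In M.2weeks replicate 3, Hmox1 was 0.58 below its group mean, Slc40a1 0.52 and Slc11a1 0.41, whereas Tfrc was 0.01 below. The ferritin chains and Ncoa4 deviated by at most 0.20 in any library. Over all 12 libraries Pearson's r of log2 CPM was 0.995 for Fth1 with Ftl1, 0.973 for Hmox1 with Slc40a1 and 0.842 for Tfrc with Steap3. After the group means were removed, r was 0.853, 0.932 and 0.893. Ncoa4 had such an r of 0.845 with Slc11a2, 0.732 with Tfrc and 0.706 with Fth1, so the members did not part into separate sets. These values describe 12 libraries that share their cell makeup and their scaling across genes.

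**Figure D4:**
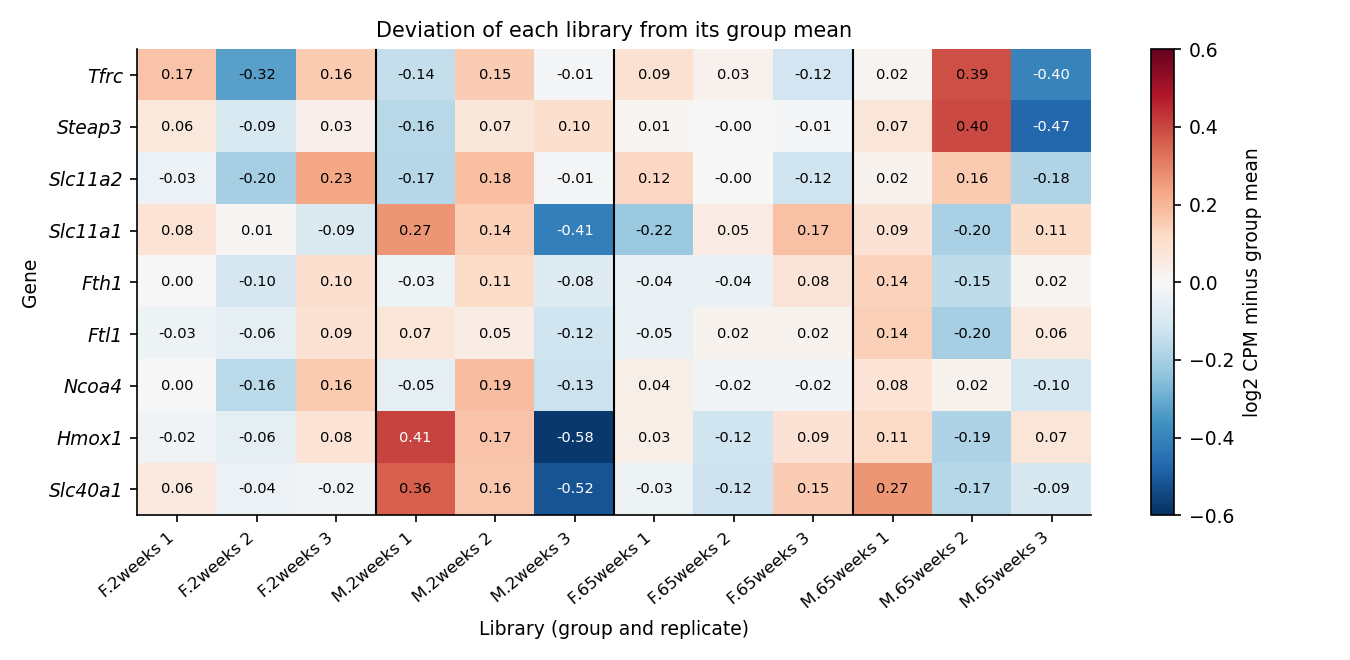
Deviation of each library from the mean of its group in log2 CPM for the 9 genes (rows) and 12 libraries (columns), with red above and blue below the mean and the value printed in each cell. Hmox1, Slc40a1 and Slc11a1 are low in M.2weeks replicate 3, by 0.41 to 0.58, and Tfrc and Steap3 are low in M.65weeks replicate 3, by 0.40 and 0.47.

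By likeness of pattern, the gene nearest to each member was sought among the 5664 genes with a mean log2 CPM of at least 5, as the highest Pearson's r of log2 CPM over the 12 libraries. It was Bcl2l13 for Tfrc (r = 0.936), Mcm3 for Steap3 (r = 0.974), Ammecr1 for Slc11a2 (r = 0.982), Psap for Slc11a1 (r = 0.992), Max for Fth1 (r = 0.988), Cyba for Ftl1 (r = 0.988), Osbpl8 for Ncoa4 (r = 0.995), Ccr3 for Hmox1 (r = 0.968) and Reep5 for Slc40a1 (r = 0.966). With group means removed, r was 0.669 for Fth1 with Max and between 0.839 and 0.989 for the other 8.

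The other genes of iron metabolism were described through 55 genes in 5 lists by role. In females 49 were tested, and 17 (34.7%) were called higher and 20 (40.8%) lower at 65 weeks, beside 30.2% and 29.5% of all genes. In males 14 of 49 (28.6%) were called higher and 19 (38.8%) lower, beside 27% and 28.5% of all genes. The shares called higher were thus near those of all genes. Between the sexes edgeR called 0 of 49 at 2 weeks, 0 of 47 at 65 weeks and 0 of 49 in the interaction. Of them 8 (16.3%), 7 (14.9%) and 6 (12.2%) had an unadjusted edgeR p under 0.05, beside 17.8%, 10.4% and 11.9% of all genes. DESeq2 called 2 (Lcn2 and Herc2), 1 (Lcn2) and 3 (Lcn2, Hfe and Slc39a14), genes named here after their values were seen, beside 3.12%, 2.56% and 2.42% of all genes. Lrp2, Ftmt, Hamp, Hamp2, Hjv and Hpx did not pass the filter on low counts in the age comparisons.

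Among 11 tested genes of other uptake routes, 2 were higher (18.2%, against 30.2% of all genes) and 7 lower (63.6%, against 29.5%) in females, and 1 was higher (9.09%, against 27%) and 7 lower (63.6%, against 28.5%) in males. Steap4, a surface metalloreductase, was at 126 ± 38.8 CPM in F.2weeks and 13.9 ± 7.19 in F.65weeks, and at 151 ± 5.49 and 14.8 ± 0.329 in males (SD, n = 3). Lcn2, a carrier of iron-binding siderophores and a granule protein of neutrophils, rose in females (255 ± 37.6 to 887 ± 121 CPM) and in males (173 ± 13.9 to 1333 ± 239 CPM). Its reported receptor Slc22a17 fell in females (6.96 ± 1.01 to 1.49 ± 0.573 CPM) and in males (7.68 ± 1.17 to 1.77 ± 0.385 CPM). Lcn2 is also 1 of the 15 neutrophil markers, whose sum rose as given above.

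Among partners of export, all 6 tested genes of the export and hepcidin list were called lower in females (29.5% of all genes), and 4 of 6 (66.7%, against 28.5% of all genes) in males. Heph, hephaestin, which oxidizes iron that leaves through ferroportin, fell in females (79.1 ± 23.2 to 2.68 ± 1.20 CPM) and in males (92.2 ± 9.91 to 3.08 ± 1.35 CPM, SD, n = 3), a mean log2 fold change of -4.76. Bmp6, a signal from liver endothelial cells that induces hepcidin, fell in females (68.2 ± 13.9 to 12.2 ± 2.95 CPM) and in males (68.9 ± 5.22 to 14.5 ± 5.97 CPM). Erfe, the erythroid hormone that lowers hepcidin, fell in females (10.5 ± 1.61 to 2.03 ± 0.756 CPM) and in males (8.23 ± 1.97 to 1.08 ± 0.294 CPM). Heph and Bmp6 moved with the endothelial markers. Other marker lists fell too, with 12 of 12 osteoblast and chondrocyte genes and 8 of 8 megakaryocyte genes called lower in each sex, and 6 and 5 of 7 tested osteoclast genes in females and males. In males 1 of the 7 osteoclast genes was called higher. The part of any of these cells in the falls of the iron genes was not tested. Hamp, hepcidin itself, had 0 to 2 counts in every library.

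Of 12 tested regulators, 7 were higher (58.3%, against 30.2% of all genes) and 3 lower (25%, against 29.5%) in females, and 6 were higher (50%, against 27%) and 5 lower (41.7%, against 28.5%) in males. Fbxl5, the iron-sensing adaptor that marks iron regulatory protein 2 for decay, rose in females (46.6 ± 1.97 to 78.9 ± 13.7 CPM) and in males (49.4 ± 2.56 to 83.4 ± 5.37 CPM, SD, n = 3). Epas1, encoding HIF-2α, fell in females (298 ± 65.5 to 56.0 ± 12.6 CPM) and in males (297 ± 28.5 to 48.6 ± 11.4 CPM). Its transcripts also held the letters of an iron-responsive element when 1 extra unpaired base was allowed. Keap1, another of the 12 regulators, held such letters without that allowance, and no other gene of these lists matched. These matches describe letters only. Nr1d1, a heme-binding nuclear receptor, had a mean log2 fold change of -1.04 over the sexes, falling in females (10.9 ± 3.22 to 3.99 ± 1.46 CPM) and in males (12.7 ± 1.68 to 6.84 ± 1.96 CPM).

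Among storage chaperones and mitochondrial genes, 4 of 9 were higher (44.4%, against 30.2% of all genes) and 1 lower (11.1%, against 29.5%) in females, and 3 were higher (33.3%, against 27%) and 1 lower (11.1%, against 28.5%) in males. Slc25a37, mitoferrin 1, which brings iron into mitochondria for heme synthesis, rose in females (1076 ± 348 to 1648 ± 60.2 CPM) and in males (739 ± 203 to 1410 ± 291 CPM, SD, n = 3). Of the 16 erythroid genes, 6 were called higher in females and 8 in males and 0 lower, and the part of erythroid cells in this rise was not tested. Abcb8, a mitochondrial transporter, had a mean log2 fold change of -0.62. Among heme genes, 4 of 11 were higher (36.4%) and 3 lower (27.3%) in females, near the 30.2% and 29.5% of all genes, and 4 were higher (36.4%, against 27%) and 2 lower (18.2%, against 28.5%) in males. Flvcr1, known as a heme exporter, had a mean log2 fold change of 0.58, Slc48a1, which moves heme out of the phagolysosome, 0.50, and Hmox2, the constitutive heme oxygenase, 0.35. Hmox2 was not called in either sex with library totals as the only scaling.

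**Figure D5:**
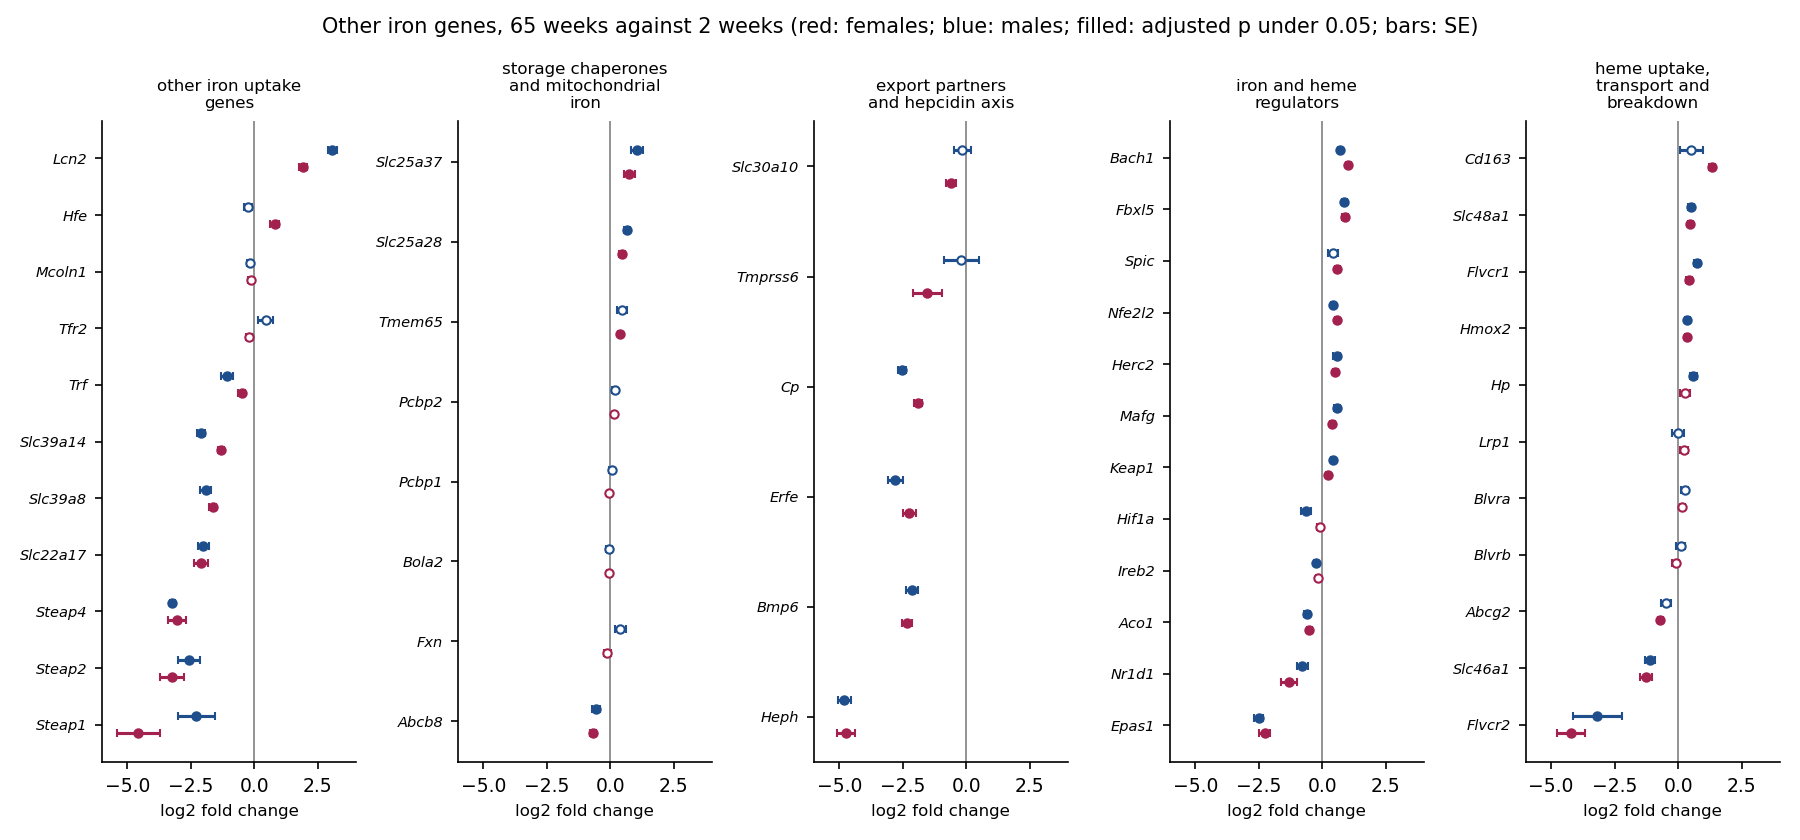
Log2 fold change ± SE (edgeR) at 65 against 2 weeks of the other iron genes in 5 lists by role, with females in red, males in blue and filled points for genes called at an adjusted p under 0.05. Heph lies lowest, with a mean of -4.76 over the sexes, Lcn2 is highest with 2.50, and the genes of the mitochondrial list lie closest to 0.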

How the data were processed

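RNA of cells labelled as endomucin-sorted BECs (the study's methods describe isolation of BECs with antibody-coated beads) was sequenced by the authors with 100-nucleotide paired reads from a total RNA kit (the labels name polyA RNA as the molecule), and counts per gene were deposited for 12 libraries. The submitters' processing notes name mm9, TopHat2 and HTSeq, whereas the study's methods name another aligner, counter and build. The annotation release, the strand setting and the treatment of reads with several matches are not given in the sources used here. Of 37620 gene IDs, 31052 matched GENCODE M39 (GRCm39), which gave names, coordinates and lengths, and they held 99.3% of counts.

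Genes were filtered with filterByExpr (minimum count 10), scaled by TMM and tested with edgeR 4.0.16 by its quasi-likelihood test (R 4.3.3), with Benjamini-Hochberg adjustment over all genes tested and a threshold of 0.05. Each comparison was fitted on its 6 libraries and the interaction on all 12. DESeq2 1.42.0, other scalings, no filter, a replicate block, 1 model of all libraries and leaving out each library were alternatives. Scripts were tested on simulated data. The 9 genes, the 5 iron lists and the markers of endothelial and other cell types were chosen with earlier results of these data known. From each iron list up to 3 genes were named, those called in both age comparisons with the largest mean change and a mean log2 CPM of at least 2. 1 gene named by this rule is counted in its list but neither drawn nor reported here.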

Additional observations from a re-analysis of the deposited data

How the results depend on the processing

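The number of members called changed by more than 1.5 times in 3 cases. For the sex difference at 65 weeks it went from 0 to 2 with DESeq2 and from 0 to 1 without M.65weeks replicate 3, with a range of 0 to 1 over the fits that left out 1 library. For age in females it went from 7 to 4 in 1 model of all 12 libraries, where Steap3, Hmox1 and Slc40a1 were not called. In males that model called 6, with Hmox1 and Slc40a1 added. The age difference in the ratio of Slc40a1 to Tfrc ranged from 0.46 to 0.72 on the log2 scale when 1 library was left out and missed the threshold in 4 of 12 fits. The sex difference in that ratio ranged from 0.33 to 0.60 and passed the unadjusted threshold in 4 of 12 fits, those without F.2weeks replicate 2, M.2weeks replicate 3, F.65weeks replicate 3 or M.65weeks replicate 2. Summing Ftl1 with Ftl1-ps1, chosen after the data were seen, kept the direction and the call of the Fth1 to Ftl1 ratio. Leaving out 1 library ended the call of Slc25a37 in females (F.2weeks replicate 1), of Hmox2 in females (F.2weeks replicate 1) and males (M.2weeks replicate 2 or 3, M.65weeks replicate 1), and of Nr1d1 (M.2weeks replicate 1 or 3) and Slc48a1 (M.2weeks replicate 3, M.65weeks replicate 1) in males, with edgeR adjusted p from 0.0516 to 0.0765.

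With the replicate number as a block, the sex difference in Slc40a1 to Tfrc was 0.46 with an exact permutation p of 0.0312 (the smallest it can give is 0.0312), and age in males had 5 called members, with Slc40a1 added. It changed no other count of members. Samples of the same number deviated with correlations from -0.355 to 0.140, and those of different numbers from -0.268 to 0.332. The highest correlations were between different numbers, but such values cannot exclude a shared origin of same-numbered samples.

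The direction turned only for values that were not called. Tfrc at 2 weeks between the sexes was 0.0029 with library totals and 0.021 in 1 model, and Tfrc with age in males was -0.0057 with RLE scaling, -0.117 with totals, -0.040 without filter, -0.030 with the block, -0.0050 in 1 model and -0.022 with DESeq2. The interaction of Ncoa4 was 0.010 with RLE, 0.012 with totals and 0.0095 with DESeq2. When 1 library was left out, the sex difference at 2 weeks ranged from -0.18 to 0.067 for Tfrc, -0.026 to 0.10 for Fth1 and -0.15 to 0.053 for Ncoa4. At 65 weeks it ranged from -0.11 to 0.30 for Tfrc, -0.063 to 0.37 for Steap3, -0.041 to 0.15 for Slc11a2, -0.16 to 0.036 for Slc11a1 and -0.073 to 0.059 for Ncoa4. Age in males ranged from -0.22 to 0.18 for Tfrc and -0.30 to 0.13 for Steap3. The interaction ranged from -0.13 to 0.31 for Tfrc, -0.0051 to 0.46 for Steap3, -0.083 to 0.098 for Ncoa4, -0.19 to 0.27 for Hmox1 and -0.16 to 0.25 for Slc40a1. The cause of these changes was not tested.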
